A study of Mus musculus with 6 samples.

Results

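Several ribosomal protein genes have a second copy that makes a related protein in certain tissues. The 10 genes described here are 5 such pairs, chosen by name: the variant genes Rpl10l, Rpl39l, Rpl22l1, Rps27l and Rpl3l with their widely expressed partners Rpl10, Rpl39, Rpl22, Rps27 and Rpl3. Of the 22770 gene rows in the deposited count table, 9 carried these names, and Rpl39 was not analysed here. RNA was measured in mouse round spermatids, the post-meiotic cells that have yet to elongate, in 3 libraries of Eif5a SKO mice and 3 of wild-type (WT) mice. The cells were isolated by flow sorting from mice at postnatal day 28 and were mainly at step 8. SKO is not spelled out in the labels, and the sources used here give neither the strain nor what drives the deletion. The protein of Eif5a binds the ribosome and aids peptide bond formation. Eif5a stood at 6.17 ± 0.771 CPM in SKO and at 659.7 ± 42.3 CPM in WT (SD, n = 3 each), and the libraries fell by this gene as labelled.

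A ribosomal protein is a structural part of a ribosomal subunit. The proteins are made in near-equal numbers because each ribosome usually holds a single copy of each. Rpl10 and Rpl39 lie on the X chromosome, which is silenced in male meiosis and stays largely repressed in spermatids. Rpl10l and Rpl39l lie on autosomes and are expressed in the male germ line, and in mice both are needed for normal sperm formation. RPL10 takes part in the last maturation step of the large subunit, and RPL39 lines the tunnel through which the new protein leaves. RPL22 is an RNA-binding protein of the large subunit, and in mice Rpl22l1 rises when Rpl22 is lost. RPS27 is a zinc finger protein of the small subunit, and Rps27l is known as a p53 target. RPL3 reaches towards the catalytic centre of the large subunit, and Rpl3l is the form of heart and skeletal muscle.

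The coding sequences of the 3 pairs below are shown because the measurement depends on telling the copies apart. They are from GENCODE M21 (GRCm38), read 5′ to 3′ from the start codon. Capitals mark the bases that differ between the 2 genes of a pair. The stretch is the first 90 coding bases for Rpl10l with Rpl10 and for Rps27l with Rps27, and all 156 coding bases for Rpl39l with Rpl39.
Rpl10l: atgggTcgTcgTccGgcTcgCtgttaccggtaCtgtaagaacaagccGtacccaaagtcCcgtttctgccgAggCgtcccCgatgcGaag
Rpl10: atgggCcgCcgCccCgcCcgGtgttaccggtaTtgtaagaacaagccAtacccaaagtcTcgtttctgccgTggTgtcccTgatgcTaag
Rpl39l: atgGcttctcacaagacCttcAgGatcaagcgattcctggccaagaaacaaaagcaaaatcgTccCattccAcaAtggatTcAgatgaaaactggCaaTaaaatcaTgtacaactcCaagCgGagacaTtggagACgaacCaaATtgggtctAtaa
Rpl39: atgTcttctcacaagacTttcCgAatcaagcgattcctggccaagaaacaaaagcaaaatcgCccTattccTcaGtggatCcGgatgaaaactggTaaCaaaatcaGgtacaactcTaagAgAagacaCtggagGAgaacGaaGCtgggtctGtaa
Rps27l: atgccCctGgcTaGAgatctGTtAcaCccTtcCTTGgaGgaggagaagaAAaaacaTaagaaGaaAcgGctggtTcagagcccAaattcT
Rps27: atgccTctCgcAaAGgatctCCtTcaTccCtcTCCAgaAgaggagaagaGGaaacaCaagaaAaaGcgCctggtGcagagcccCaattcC

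No pair had a coding stretch of read length in common. Rpl10l and Rpl10 shared 84.8% of their 645 coding bases, Rpl39l and Rpl39 85.3% of 156, and Rps27l and Rps27 76.1% of 255. Rpl22l1 and Rpl22 shared 70.2% of 369 aligned bases, and Rpl3l and Rpl3 73.8% of 1212. Reads were 150 bases long, and the fewest differences in a window of that length were 15 for Rpl10l against Rpl10 and 22 or more for the other pairs. The partners share reads with other copies instead. Of the 150-base windows of the Rpl10 transcript, 83.3% occurred unchanged in annotated transcripts of 8 other genes, mostly processed pseudogenes. The share was 98.0% for Rps27, whose coding sequence is identical to that of the retrogene Rps27rt, 71.0% for Rpl3 and 23.8% for Rpl22l1. It was 0 for Rpl10l, Rpl39l, Rps27l, Rpl22 and Rpl3l. How the authors treated reads that map to several places is unknown here, so the levels of Rpl10, Rps27 and Rpl3, and in part that of Rpl22l1, are uncertain.

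The libraries held 52055193 to 60970931 counts and 21177 to 22006 detected genes. Levels are in CPM at the effective library size, and 3 counts in a library correspond to 0.0481 to 0.0620 CPM, a limit that covers counting error only. SKO replicate 3 stood apart. In it, 72 other cytosolic ribosomal protein genes lay a median 1.25 above their WT mean on the log2 scale. In SKO replicates 1 and 2 that median was 0.55 and 0.67. The same held for 1188 other coding genes with transcripts under 1000 bases, at 0.93, 0.62 and 0.74 in SKO replicates 3, 1 and 2, while 11978 longer ones stood at -0.13 to -0.04 in the SKO libraries. Round spermatid markers were detected at a summed 6443 to 7506 CPM in SKO and 4816 to 5376 CPM in WT. The summed level of 8 elongating spermatid markers was 8013 to 8856 CPM in SKO and 4479 to 4944 CPM in WT. Gstm5 made up most of that sum, at 4730 to 5548 CPM in SKO and 2335 to 2551 CPM in WT. Of the 8 markers 6 were called higher and 0 lower. In sorted bulk samples, a change in the number of cells of a type and a change in RNA per cell cannot be told apart.

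Of the 9 genes, 6 rose in SKO, 0 fell and 3 did not pass the test (edgeR quasi-likelihood test, Benjamini-Hochberg adjusted p under 0.05 over 19776 genes). All 9 passed the filter on low counts. Across all genes tested, 21.2% were called higher and 20.9% lower, and the median log2 fold change (SKO over WT) was 0.012, against 1.04 for the 9. Against WT means, the 9 lay a median 0.65, 0.64 and 1.53 higher in SKO replicates 1, 2 and 3 on the log2 scale. Other coding genes with transcripts under 1000 bases lay 0.62, 0.74 and 0.93 higher. Among the genes called, only Rpl22 has a longer transcript (2051 bases). The genes that did not pass have transcripts of 1023 (Rpl10l), 1351 (Rpl3) and 1375 bases (Rpl3l), and Rpl3l was near the counting floor. After correcting for transcript length and GC, 5 of the 9 were called higher and 1 lower. Length as a cause of these calls was not tested. Of the 2 germ line variants, Rpl39l rose and Rpl10l did not pass the test. For 6 of the 9 genes the SKO values lay above all WT values, as they did for 27.3% of all genes tested. For 7 of the 9 the groups did not overlap in either direction, as for 55.6% of all genes tested.

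**Figure D1:**
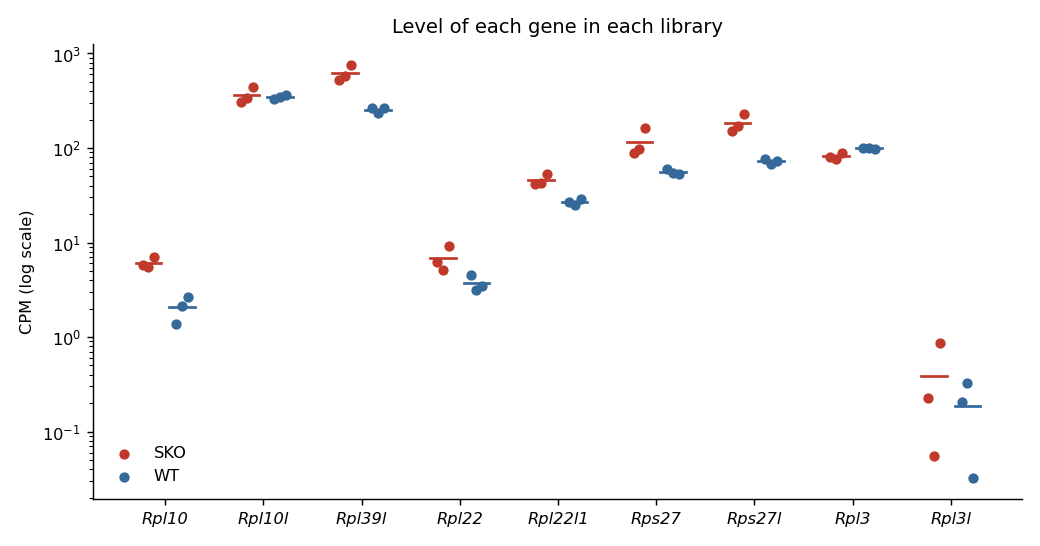
Level of the 9 genes in CPM on a log axis, with 1 point per library, SKO left of WT, and bars at the group means. The SKO points of Rpl39l, at 525 to 762 CPM, lie above its WT points at 235 to 264 CPM, while the 2 groups of Rpl10l overlap.

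Rpl10l (chr12:66283379-66284401, minus strand, a copy with no intron) had similar means in both groups. It stood at 305, 336 and 440.3 CPM in the SKO libraries and at 333, 350.4 and 360.4 CPM in the WT libraries. The groups overlapped, with SKO replicate 1 below the WT libraries, SKO replicate 2 among them and SKO replicate 3 above them. The means were 360.4 ± 70.8 CPM in SKO and 348 ± 14.1 CPM in WT (SD, n = 3 each). The log2 fold change was 0.05 ± 0.15 (SE; edgeR adjusted p = 0.812), with an approximate 95% interval of -0.25 to 0.35. Its sign turned without SKO replicate 3 (-0.152), under library totals alone (-0.179) and after correcting for transcript length and GC (-0.115), and no setting tried gave a call.

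Rpl10 (chrX:74270812-74273135, plus strand), the X-linked partner, rose but remained at a low level. It stood at 5.82, 5.57 and 6.99 CPM in SKO and at 1.38, 2.15 and 2.64 CPM in WT. All SKO values lay above all WT values. The log2 fold change was 1.57 ± 0.27 (edgeR adjusted p = 0.00153). Among 720 X-linked genes tested, 62.6% were called higher with a median log2 fold change of 1.32, against 18.7% and -0.04 for 18140 autosomal genes. The value depends on how reads of the Rpl10 copies were assigned. The 3 copies with a row of their own held 9.32% to 15.01% of the summed counts in SKO and 35.05% to 57.1% in WT, and 1 of them, Gm3379, had 4, 6 and 8 counts in SKO and 89, 44 and 118 counts in WT. With these rows added to that of Rpl10 the log2 fold change was 0.83 (edgeR adjusted p = 0.0223).

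Rpl10l held nearly all of the counts assigned to the pair in both groups. Its share of the summed Rpl10l and Rpl10 counts was 98.1%, 98.4% and 98.4% in SKO and 99.6%, 99.4% and 99.3% in WT. The number of Rpl10l counts per Rpl10 count was 52.4, 60.3 and 63.0 in SKO and 241, 163 and 136 in WT. The groups did not overlap. On the log2 scale this ratio averaged 5.87 ± 0.14 in SKO and 7.44 ± 0.42 in WT (SD, n = 3 each), a difference of -1.58 ± 0.25 (SE; exact permutation test, two-sided, p = 0.1 and 0.2 adjusted over 4 pairs). With 3 libraries against 3 this test cannot give less than 0.1. With the rows that share reads added the difference was -0.829. Per kilobase of transcript, Rpl10l stood a mean 49.0 times above Rpl10 in SKO and 151 times in WT. Reads that Rpl10 shares with its other copies may be missing from its row, and adding rows cannot recover discarded reads. These shares and ratios are therefore uncertain.

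**Figure D2:**
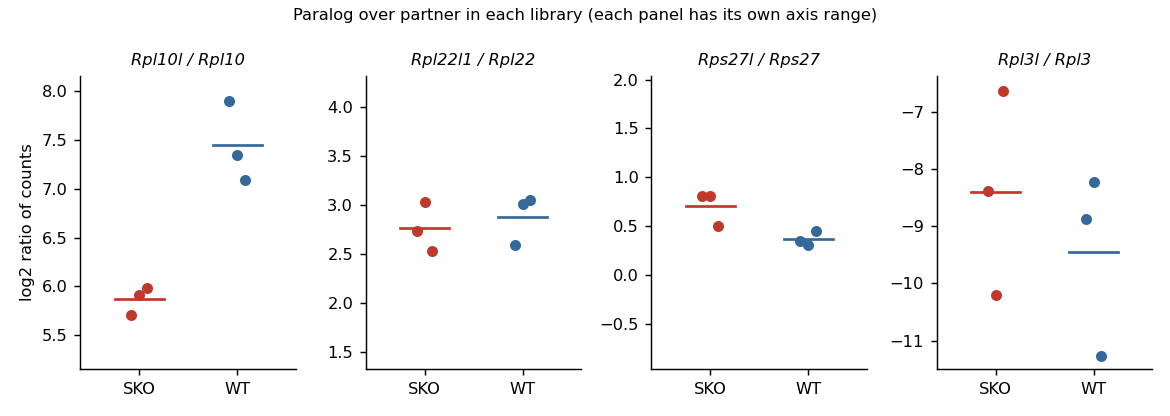
Log2 ratio of the counts of the variant gene to those of its partner, with 1 point per library, SKO left of WT, bars at the group means and a separate axis range in each panel. The groups lie apart for Rpl10l to Rpl10 (means 5.87 in SKO and 7.44 in WT) and for Rps27l to Rps27 (0.71 and 0.37), and overlap for the other pairs.

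Rpl39l (chr16:10170226-10174911, plus strand) had the highest level of the 9 in SKO. It stood at 525, 571 and 762 CPM in SKO and at 264, 235 and 264 CPM in WT. All SKO values lay above all WT values, and SKO replicate 3 was the highest of them. The log2 fold change was 1.28 ± 0.16 (edgeR adjusted p = 0.000266). It was 1.08 without SKO replicate 3 (edgeR adjusted p = 1.82e-05) and 0.77 after the length and GC correction (edgeR adjusted p = 0.0025), so it remained called in each. Rpl39 itself was not analysed here, so its share of the pair cannot be given.

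Both genes of the Rps27 pair rose. Rps27l (chr9:66946086-66949516, plus strand) stood at 153, 173 and 228 CPM in SKO and at 76.4, 67.3 and 72.3 CPM in WT. Its log2 fold change of 1.36 ± 0.17 (edgeR adjusted p = 0.000248) had the lowest adjusted p of the 9 genes. Rps27 (chr3:90212522-90213651, minus strand) stood at 87.5, 98.4 and 161 CPM in SKO and at 59.9, 54.2 and 53.1 CPM in WT. In both genes every SKO library lay above every WT library, and SKO replicate 3 lay highest. The log2 fold change of Rps27 was 1.05 ± 0.22 (edgeR adjusted p = 0.00397). The length and GC correction lowered these values to 0.78 for Rps27l and 0.54 for Rps27 (edgeR adjusted p = 0.00196 and 0.0191). Without SKO replicate 3 the log2 fold change of Rps27 was 0.705 (edgeR adjusted p = 0.000892).

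The share of Rps27l in the counts of its pair was higher in SKO. It was 63.6%, 63.7% and 58.6% in SKO and 56.1%, 55.4% and 57.7% in WT. The groups did not overlap, with SKO replicate 3 closest to WT. The log2 ratio of Rps27l to Rps27 averaged 0.71 ± 0.18 in SKO and 0.37 ± 0.07 in WT, a difference of 0.34 ± 0.11 (exact permutation test, two-sided, p = 0.1, the smallest this test can give, and 0.2 adjusted over 4 pairs). The retrogene Rps27rt, picked after its values were seen, cannot be separated from Rps27 in its coding part. It had 360, 516 and 803 counts in SKO and 342, 313 and 365 counts in WT (log2 fold change 0.95 ± 0.27, edgeR adjusted p = 0.0172).

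Both genes of the Rpl22 pair rose. Rpl22l1 (chr3:28805436-28807424, plus strand) stood at 41.4, 42.1 and 53.2 CPM in SKO and at 27.1, 25.2 and 28.7 CPM in WT. Rpl22 (chr4:152325742-152334071, plus strand) stood at 6.22, 5.14 and 9.19 CPM in SKO and at 4.50, 3.12 and 3.46 CPM in WT. SKO values lay above WT values in both genes, for Rpl22 by a margin smaller than the spread within each group. The log2 fold changes were 0.76 ± 0.15 for Rpl22l1 and 0.89 ± 0.26 for Rpl22 (edgeR adjusted p = 0.00379 and 0.022). Neither call held in every setting. That of Rpl22l1 ended after the length and GC correction, at 0.038 (edgeR adjusted p = 0.836), while Rpl22 was at 1.01 under the same correction (edgeR adjusted p = 0.0168). That of Rpl22 ended without SKO replicate 3 (0.587, edgeR adjusted p = 0.0568), without WT replicate 2 (0.781, 0.088) or 3 (0.844, 0.0711) and under library totals alone (0.666, 0.0831). Rpl22l1 held 86.9%, 89.1% and 85.3% of the counts of the pair in SKO and 85.8%, 89.0% and 89.2% in WT. The groups overlapped, and the log2 ratio differed by -0.12 ± 0.21 (SE; exact permutation test, two-sided, p = 0.6 and 0.6 adjusted over 4 pairs). This ratio is of counts without the length and GC correction, under which Rpl22l1 moved down and Rpl22 up, as given above.

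Rpl3 (chr15:80077791-80091868, minus strand) was lower in SKO without passing the test. It stood at 79.5, 76.6 and 88.1 CPM in SKO and at 100.1, 99.9 and 98.1 CPM in WT. All SKO values lay below all WT values. The log2 fold change was -0.29 ± 0.12 (edgeR adjusted p = 0.09), and it passed the threshold without SKO replicate 3 (-0.382, edgeR adjusted p = 0.0105), under library totals alone (-0.523, 0.011) and after the length and GC correction (-0.318, 0.0397). Its annotated span, on a strand the counting may not have separated, overlaps the start of Syngr1 on the other strand. Rpl3l (chr17:24727820-24736143, plus strand) was near the counting floor, with 11, 3 and 44 counts in SKO and 12, 19 and 2 counts in WT. The groups overlapped, and the spread within each was as large as the mean or nearly so (0.385 ± 0.430 CPM in SKO and 0.187 ± 0.147 CPM in WT; edgeR adjusted p = 0.444). The log2 fold change of 1.04 ± 1.02 turned to -0.448 without SKO replicate 3. Rpl3l made up 0.0726% to 0.980% of the counts of its pair in SKO and 0.0327% to 0.323% in WT, and the log2 ratio differed by 1.04 ± 1.38 (exact permutation test, two-sided, p = 0.5 and 0.6 adjusted over 4 pairs).

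**Figure D3:**
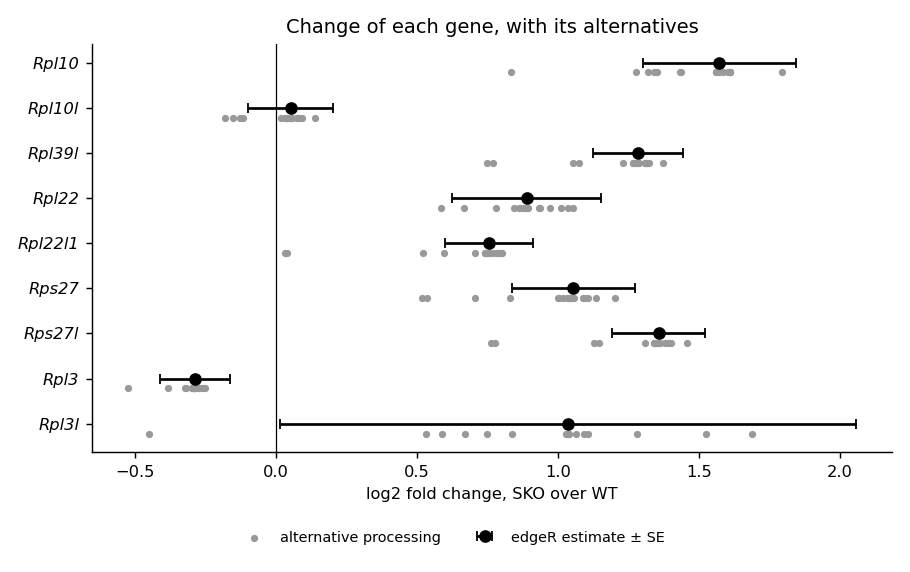
Log2 fold change of each gene, SKO over WT, as the edgeR estimate with its standard error (black) and as recomputed under each alternative (grey). The estimates of Rpl10, Rpl39l, Rpl22, Rps27 and Rps27l stay above 0.5 in every alternative, those of Rpl10l fall on both sides of 0, and 2 of those of Rpl22l1 lie near 0.

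Per kilobase of transcript, the genes kept nearly the same order in both groups, with the top 2 genes exchanged, and likewise Rpl22l1 and Rpl3. In SKO the order was Rpl39l at 769 ± 155.9 CPM per kilobase, Rpl10l at 352 ± 69.3, Rps27 at 335 ± 115, Rps27l at 321 ± 67.5, Rpl22l1 at 82.5 ± 11.96, Rpl3 at 60.3 ± 4.39, Rpl10 at 7.17 ± 0.887, Rpl22 at 3.34 ± 1.02 and Rpl3l at 0.280 ± 0.313 (SD, n = 3 each). The ranges of Rpl10l (298 to 430), Rps27 (254 to 467) and Rps27l (266 to 396) overlapped. These 3 genes were measured in the same libraries, each highest in SKO replicate 3, so overlap of ranges does not settle their order within a library. In WT the order was Rpl10l at 339.9 ± 13.8 CPM per kilobase, Rpl39l at 316 ± 20.3, Rps27 at 161.5 ± 10.6, Rps27l at 125 ± 7.91, Rpl3 at 73.5 ± 0.842, Rpl22l1 at 48.9 ± 3.17, Rpl10 at 2.41 ± 0.745, Rpl22 at 1.80 ± 0.350 and Rpl3l at 0.136 ± 0.107. In WT the ranges of Rpl10l and Rpl39l overlapped, as did those of Rpl10 and Rpl22. Transcript lengths are those of the annotated transcript with the longest coding sequence. Per kilobase of coding sequence, Rpl39l came ahead of Rpl10l in both groups (3969 and 559 in SKO, 1630 and 539 in WT). Rps27l then came ahead of Rps27 (580 and 454 in SKO, 226.5 and 218.5 in WT). Rpl22 likewise came ahead of Rpl10 (17.7 and 9.50 in SKO, 9.54 and 3.19 in WT). In SKO, Rps27l also came ahead of Rpl10l. The order within these pairs thus depends on the length used.

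The other genes of the cytosolic ribosome mostly rose as well. Of 41 large subunit genes 32 were called higher and 1 lower, with a median log2 fold change of 0.84. Of 31 small subunit genes 25 were called higher and 0 lower, with a median of 0.88. Together that is 79.2% higher, against 21.2% of all genes tested. The share called among short genes was not counted. Against WT means, these ribosomal protein genes lay a median 0.55, 0.67 and 1.25 higher in SKO replicates 1, 2 and 3. Other coding genes with transcripts under 1000 bases lay 0.62, 0.74 and 0.93 higher. The median of the ribosomal protein genes was above that of the short genes in SKO replicate 3 only. Not all of the ribosomal protein genes are short (the Rps15a transcript has 5179 bases), so the 2 sets are not matched for length. The part of transcript length in their rise was not tested. Rpl23 and Rpl26, of the large subunit, both had log2 fold changes of 1.20 ± 0.18 (edgeR adjusted p = 0.000659 and 0.000676). Their levels rose to 287 ± 68.2 CPM in SKO, against 125 ± 11.3 CPM in WT, and to 428 ± 109 CPM in SKO, against 186 ± 10.2 CPM in WT. Rps15, of the small subunit, rose by 1.94 ± 0.23 on the log2 scale (edgeR adjusted p = 0.000229), to 77.5 ± 25.8 CPM in SKO, against 20.1 ± 2.66 CPM in WT. Rpl13a, counted 4 to 6 times in SKO libraries and 18 to 38 times in WT libraries, fell by 2.31 ± 0.66 on the log2 scale (edgeR adjusted p = 0.0186). That call ended without SKO replicate 2, WT replicate 1 or WT replicate 3 (edgeR adjusted p = 0.0616, 0.0626 and 0.0879). The median of these 72 genes was 0.60 after the length and GC correction, with 48 called higher, and 0.59 without SKO replicate 3. Against the median of 0.86 over both subunits, Rpl10l, Rpl3 and Rpl22l1 had lower log2 fold changes and the other 6 genes higher ones.

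**Figure D4:**
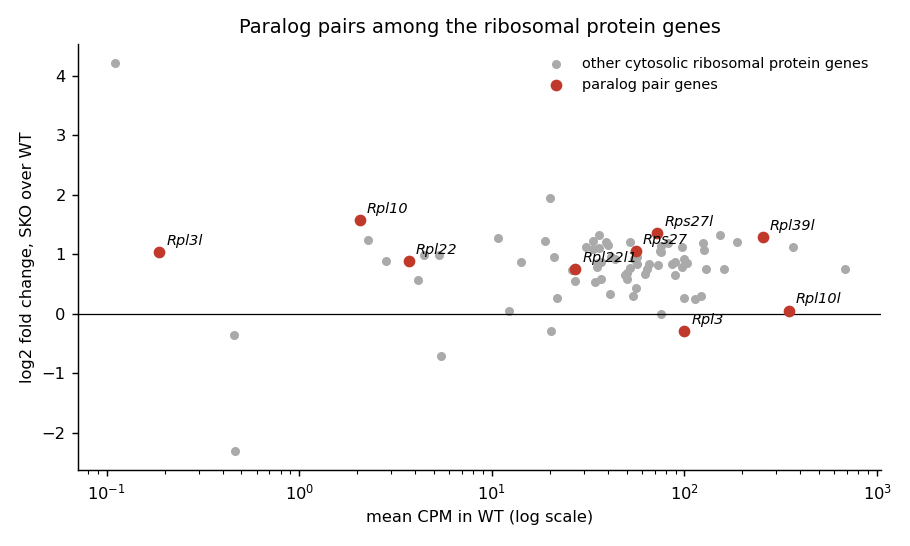
Log2 fold change, SKO over WT, against the mean level in WT in CPM on a log axis, for the 9 genes (red, named) and 72 other cytosolic ribosomal protein genes (grey). The median of the grey points is 0.86, while Rpl10l (0.05) and Rpl3 (-0.29) lie at or below 0.

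Among 3 further variant genes, Rpl7l1 rose by 0.46 ± 0.15 (edgeR adjusted p = 0.0321), to 26.4 ± 1.63 CPM in SKO, against 19.3 ± 1.90 CPM in WT, a call that ended under library totals (0.216) and without each library other than SKO replicate 3 (log2 fold changes 0.385 to 0.537, edgeR adjusted p = 0.0583 to 0.132). Rps4l and Rpl36al did not pass. Rps4l is an autosomal copy of X-linked Rps4x, and both were singled out after their values were seen. Rps4x had 54, 128 and 141 counts in SKO and 0, 10 and 10 counts in WT (log2 fold change 4.21 ± 0.77, edgeR adjusted p = 0.00206). Rps4l stood at 218, 211 and 280.4 CPM in SKO and 190.2, 183 and 192 CPM in WT (log2 fold change 0.33 ± 0.14, edgeR adjusted p = 0.0904). This pair, like Rpl10 with Rpl10l, had an X-linked member at low level that rose and an autosomal member at high level that did not pass. Because it was picked for its values, the likeness adds no support. Unlike Rpl10l, Rps4l has no annotated coding sequence in GENCODE M21. Reads that Rps4x or Rps4l may share with each other or with further copies were not examined, so their levels are uncertain.

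Values were set out likewise for a list of 12 other X-linked genes with an autosomal copy expressed in testis, of which 9 X-linked genes and all 12 autosomal copies were tested. Of the 9 X-linked genes 6 were called higher and 0 lower, with a median log2 fold change of 1.28, close to the 62.6% and 1.32 of all X-linked genes tested. Of the 12 autosomal copies 4 were called higher and 0 lower, against 18.7% higher among all autosomal genes tested, and their median was 0.28, against -0.04. Pgk1, a glycolytic enzyme gene, rose by 1.54 ± 0.16, to 23.7 ± 2.72 CPM in SKO, against 8.15 ± 0.261 CPM in WT, and Utp14a, a ribosome assembly factor, by 1.56 ± 0.16 (edgeR adjusted p = 9.96e-05 and 8.67e-05). Among autosomal copies Cetn1, a centrin, rose by 1.43 ± 0.14, to 2067 ± 262 CPM in SKO, against 766 ± 60.9 CPM in WT, and Mcts2, a translation factor, by 1.02 ± 0.13 (edgeR adjusted p = 7.52e-05 and 0.000339). In 8 of the 9 pairs with both genes tested, the X-linked gene had the higher log2 fold change, the exception being Cetn2 (0.66) with Cetn1. These lists were described by counts and medians, with no test of the list.

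**Figure D5:**
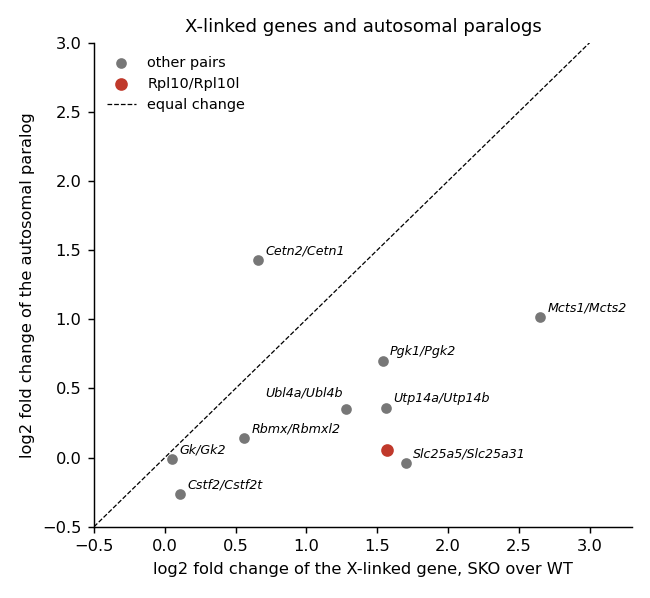
Log2 fold change, SKO over WT, of the X-linked gene (horizontal) and of its autosomal copy (vertical) in 9 pairs (grey, named) and for Rpl10 with Rpl10l (red), with a dashed line where both are equal. Of the 9 pairs 8 lie below the line, as does Rpl10 with Rpl10l at 1.57 and 0.05.

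Genes that assemble ribosomes had calls in both directions, as did all genes tested. Of 42 assembly factors 12 were called higher, 28.6% against 21.2% of all genes tested. Lower calls numbered 5 of the 42, against 20.9% of all genes tested. The median log2 fold change was 0.23, against 0.012 over all genes. Utp14a rose as given above, and Npm1, a nucleolar chaperone, rose by 1.01 ± 0.13 (edgeR adjusted p = 0.000271), to 586 ± 55.2 CPM in SKO, against 291 ± 14.6 CPM in WT. Bysl, a small subunit assembly factor, fell by 2.24 ± 0.38, to 6.07, 4.94 and 1.66 CPM in SKO, against 18.98, 18.9 and 22.1 CPM in WT (edgeR adjusted p = 0.0014). Grwd1, whose yeast counterpart is a chaperone of Rpl3, fell by 1.16 ± 0.21, to 6.77 ± 1.48 CPM in SKO, against 15.2 ± 2.00 CPM in WT (edgeR adjusted p = 0.0017).

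The genes whose profile over the 6 libraries was most like that of Rpl39l were Efcab2, Spa17 and Ly6k, at distances of 0.0787, 0.0802 and 0.0910 between centred log2 CPM, among 7612 named genes with a mean of at least 5 CPM. Spa17, which encodes a sperm surface protein, stood at 1131, 1247 and 1674 CPM in SKO and at 609, 511 and 579 CPM in WT. Those most like Rpl10l were Mpg, Mrto4 and Tomm20l, at 0.128, 0.153 and 0.16. Mrto4, which acts in large subunit assembly, stood at 134, 147 and 188 CPM in SKO and at 147, 139.9 and 143 CPM in WT. The 6 libraries fall into 2 groups, so likeness over them includes the difference between the groups.

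Ribosomal protein genes are expressed in every cell type, so RNA of other testis cells would also be counted here. All 5 Sertoli cell markers used here, of 10 listed, were called higher, with a summed level of 185, 107 and 57.3 CPM in SKO replicates 1, 2 and 3 and of 1.82 to 9.02 CPM in WT. The Leydig cell list, 5 of 6 used, summed to 7.22 to 43.9 CPM in SKO and 1.23 to 20.1 CPM in WT, with 3 called higher. The peritubular myoid list, 3 of 5 used, summed to 16.05 to 35.9 CPM in SKO and 5.15 to 11.97 CPM in WT, and the macrophage list, 5 of 6 used, to 1.94 to 7.35 CPM in SKO and 3.99 to 4.81 CPM in WT. The endothelial list, 2 of 5 used, summed to 1.86 to 3.45 CPM in SKO and 5.55 to 6.68 CPM in WT, and the erythroid list, 4 of 5 used, to 13.4 to 38.8 CPM in SKO and 4.64 to 19.2 CPM in WT. None of the markers used was at 0 in all libraries. Rpl39l, Rps27, Rps27l, Rpl22, Rpl22l1 and Rpl10 were each highest in SKO replicate 3, as were Rpl10l and Rpl3l, which did not pass the test. Of the SKO libraries, replicate 3 also had the highest myoid (35.9 CPM), macrophage (7.35 CPM) and endothelial (3.45 CPM) sums, and replicate 1 the highest Sertoli, Leydig and erythroid sums. Spermatogonial markers, 5 of 8 used, summed to 74.3 to 96.2 CPM in SKO and 42.3 to 46.6 CPM in WT, with 1 called higher and 2 lower. Dazl, the 1 called higher, made up most of the sum in SKO, at 59.4 to 79.6 CPM, against 19.4 to 21.8 CPM in WT. Kit and Dmrt1 were called lower, with log2 fold changes of -2.46 and -1.82, and the median of the list was -0.32. The 8 spermatocyte markers summed to 12668 to 13998 CPM in SKO and 8878 to 9123 CPM in WT, with 2 called higher. Ldhc, a lactate dehydrogenase gene of germ cells, made up most of that sum, at 10952 to 12324 CPM in SKO and 7196 to 7387 CPM in WT, and the median log2 fold change of the list was -0.05. The part of other cell types in the rise of the ribosomal protein genes was not tested.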

How the data were processed

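Per the labels, polyadenylated RNA of sorted round spermatids was amplified by Smart-seq2 and sequenced as paired 150-base reads. The values are raw counts by gene and library, as deposited. The tools named, per the submitters' processing notes, are featureCounts 1.5.0-p3 (Subread), HISAT2 2.0.5, Trim Galore 0.6.4 and FastQC, and the build is GRCm38 (mm10). Not given in the sources used here are the annotation, the strand setting and how multi-mapped reads were handled. PCR duplicates are counted as reads, since Smart-seq2 adds no molecular identifiers.

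The 10 genes, gene lists and tests were chosen with earlier results of these data known. Columns were joined to labels by genotype and replicate number. edgeR 4.0.16 (R 4.3.3) was run with genes kept by filterByExpr (minimum count 10, minimum total 15), scaling by TMM, and group as the sole term of the quasi-likelihood test. P-values were adjusted by Benjamini-Hochberg over the 19776 genes kept. Standard errors are the log2 fold change over the square root of F, without its sign. Nothing in the labels says that libraries came from separate animals, so p-values measure the spread between libraries, which may be technical. Ratios within pairs used a pseudocount of 0.5 on each count.

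The naming rule took the 10 genes, up to 2 genes called higher and 2 lower with the lowest adjusted p from each list, and the 3 genes nearest to Rpl10l and to Rpl39l. One gene the rule names is not reported here. Of the gene rows, 22023 (96.7%) matched 1 gene name of GENCODE M21, which gave positions, lengths and sequences. The alternatives left out each library, added the replicate number as a block, scaled by library totals, by upper quartiles or by the size factors of DESeq2 1.42.0, and replaced the test by DESeq2 or limma-voom (limma 3.58.1). Others changed the filter, corrected each library by loess for transcript length and GC, and had rows of pseudogenes added. Adding the rows of all genes that share 150-base windows was chosen after seeing the data. The edgeR step was tested on simulated data with known changes.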

Additional observations from a re-analysis of the deposited data

How the results depend on the processing

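Calls of Rpl10, Rpl39l, Rps27 and Rps27l as higher held in every setting that tested them, with log2 fold changes of 0.833 to 1.79, 0.75 to 1.37, 0.517 to 1.20 and 0.762 to 1.46. Rpl10 was not among the genes left by the filter of 5 CPM in 3 libraries. Rpl10l, with no call in any setting, had negative values under library totals (-0.179), after the length and GC correction (-0.115) and with that correction and the replicate block (-0.126). Without single libraries it ranged between -0.152 and 0.138, and Rpl3l between -0.448 and 1.687. Under library totals the median over all genes was -0.228, against 0.012, and 33.3% of calls were higher, against 50.3%. The number of the 9 genes called lower was 0 in the main setting and 1, Rpl3, under library totals and after the length and GC correction, and ranged from 0 to 1 without single libraries. The filter of 5 CPM in 3 libraries, which tests 10279 genes, gave 2742 lower calls in all. For the other ribosomal protein genes, 1 called lower became 0 under that filter and under the replicate block, and 0 to 3 without single libraries. Under library totals 1 autosomal copy of an X-linked gene was called lower, and 11 ribosome assembly factors were, against 5.

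Same-numbered libraries correlated at -0.0221, -0.0511 and -0.0655 in their deviations from the group means, so no pairing by number was seen. Such values cannot exclude a shared batch, because deviations from a mean of 3 are constrained. With the replicate block, 3552 genes were higher and 3666 lower, and 6 of the 9 genes were higher and 0 lower. The balanced numbers fix the differences of the pair ratios (-1.58, -0.12, 0.34 and 1.04), so their being equal under the block says nothing of stability. The 3 genes most like Rpl10l and the 3 most like Rpl39l were the same 3 with library totals. Among the other named genes, 196 alternative values kept the call and 11 lost it, those of Rpl13a (replicate block adjusted p = 0.0544 by edgeR) and Rpl7l1 (0.0778). Low counts limit Rpl3l, and shared reads limit Rpl10, Rps27 and Rpl3.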
